A study of Mus musculus with 4 samples.

Results

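The transcription factors that set the myeloid lineage were examined in 32Dcl3-Abl1ko cells that grew with or without IL-3. The genes were Cebpa, Cebpb, Cebpd, Cebpe, Cebpg, Spi1, Gfi1, Irf8, Runx1 and Myb, chosen by name, and all 10 were found among the 23756 genes of the deposited table. 32Dcl3 is a murine bone marrow cell line that normally needs the cytokine IL-3 to survive. In all libraries Abl1, which encodes a tyrosine kinase, had been edited with CRISPR/Cas9. The groups were Abl1ko/IL3+ (cells kept with IL-3, 2 libraries) and Abl1ko/IL3- (cells growing without IL-3, 2 libraries). The paper describes the latter as IL-3-independent cells, which arose from knockout populations under gradual withdrawal of IL-3. The absence of IL-3 and the selection of cells able to grow without it therefore cannot be told apart. The knockout cells were selected as single clones after lentiviral delivery of the guides, and no source used here ties a library to a clone or a guide. The series is labelled as biologically duplicated.

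Library totals ranged from 48953174 to 60382588 counts. Abl1 itself was read 1322 and 2222 times with IL-3 against 1544 and 2256 times without it. Such RNA levels cannot check the edit, because a small insertion or deletion can leave the transcript in place. The labels call the cells pre-B cells, but most markers of that type were low. The 9 pre-B-cell marker genes that could be read held between 19.0 and 26.2 CPM (counts scaled to library size) in sum. Cd79b, a part of the B-cell receptor, gave 11.2 to 16.2 CPM of it, and its partner Cd79a gave 11.7 CPM in Abl1ko/IL3+ replicate 2 and at most 1.73 CPM in the other libraries. Rag1, needed to rearrange the antigen receptor genes, had at most 4 counts in a library. The 11 immature myeloid markers held between 1540 and 3339 CPM, although Kit, which marks many progenitors, had at most 4 counts in a library.

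Blood cells choose the granulocyte or the monocyte path through a small circuit of transcription factors. PU.1 (gene Spi1) and C/EBPα open the myeloid programme, RUNX1 and MYB act in progenitors, GFI1 is a repressor that favours neutrophils, and IRF8 favours monocytes. The other C/EBP proteins share a leucine zipper, through which they pair with each other and with C/EBPα. C/EBPε acts late, in the formation of secondary granules, whereas C/EBPβ and C/EBPδ respond to cytokines and stress.

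The promoters of Gfi1, Cebpa and Irf8 are printed because the results turn on these genes: Gfi1 differed most between the groups, Cebpa varied most between replicates and Irf8 was barely read. The sequences are those of RefSeq on GRCm38.p6, for which windows of 7 of the 10 genes were at hand. Those of Cebpd, Cebpe and Spi1 were not analysed here. Each run holds the 250 bases before a transcription start, 5′ to 3′ on the strand of the gene. Capitals mark matches, on either strand, to any of 6 short motifs: AATC for GFI1, TTGCNNAA for C/EBP, AACNG for MYB, TGNGGT for RUNX, GAGGAA for PU.1 and TATAAA for the TATA box.
Gfi1, internal start, chr5:107724344-107724593, minus strand: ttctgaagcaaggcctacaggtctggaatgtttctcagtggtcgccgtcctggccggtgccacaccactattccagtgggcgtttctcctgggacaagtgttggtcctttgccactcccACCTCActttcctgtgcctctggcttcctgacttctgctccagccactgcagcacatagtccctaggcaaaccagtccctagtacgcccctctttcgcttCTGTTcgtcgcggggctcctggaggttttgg
Cebpa, chr7:35119043-35119292, plus strand: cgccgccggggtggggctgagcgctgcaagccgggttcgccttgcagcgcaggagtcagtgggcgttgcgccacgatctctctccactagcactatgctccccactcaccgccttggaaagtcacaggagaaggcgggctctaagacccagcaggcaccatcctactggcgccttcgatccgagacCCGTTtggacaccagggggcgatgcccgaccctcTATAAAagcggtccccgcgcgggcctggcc
Irf8, chr8:120736108-120736357, plus strand: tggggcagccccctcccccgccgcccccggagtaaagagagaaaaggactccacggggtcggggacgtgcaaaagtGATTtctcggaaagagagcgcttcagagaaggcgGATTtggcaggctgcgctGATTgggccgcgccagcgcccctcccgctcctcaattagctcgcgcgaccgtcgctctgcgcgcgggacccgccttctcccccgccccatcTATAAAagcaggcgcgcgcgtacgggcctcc

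Gfi1 has another start further upstream, whose window overlaps exons of Gfi1 and of the antisense gene A430072P03Rik. Only 30 bases of it are shown, in which capitals mark a match to the C/EBP motif, at -143 to -136 from that start. The match overlaps one to the MYB motif.
Gfi1, upstream start, chr5:107725930-107725959, minus strand: cgaaggtaggtTTGCTGAActgctgtgcct

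The C/EBP motif was present in 9.56% of all 32851 promoter windows of that length, and among the windows of these genes it was found only here. The Cebpa window had a TATA box at -30 and a MYB match at -64. A TATA box was present in 12.4% of all windows and the MYB motif in 74.2%. The printed Irf8 window held 3 matches to the GFI1 core and a TATA box at -31. The GFI1 core was present at least once in 69.0% of all windows. Another Irf8 window, at an internal start and not printed, held 1 GFI1, 2 MYB and 1 RUNX match and no TATA box. The Gfi1 window at the internal start had a RUNX match at -131 and a MYB match at -31, and the RUNX motif was present in 40.1% of all windows. None of the 3 printed windows held the PU.1 motif, which was present in 23.3% of all windows. A match describes the letters only and is not evidence of binding.

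Levels were compared between genes in FPKM (fragments scaled by transcript length and library size). The late granulocyte factor gene Cebpe was the most abundant of the 10 in every library. Cebpe stood at 311.1 and 145.7 FPKM with IL-3 against 125.2 and 230.4 FPKM without it, above 98.1% to 99.1% of all genes in the table. Its lowest library was above the highest library of any other member, which was Myb at 80.4 FPKM in Abl1ko/IL3+ replicate 1. Myb, Spi1 and Cebpa followed, between 15.1 and 80.4 FPKM. Their order differed between libraries, since Myb ranked above Spi1 in 3 libraries and below it in Abl1ko/IL3+ replicate 2. Cebpb, Runx1, Cebpg and Cebpd lay between 2.84 and 17.9 FPKM, with ranges over the libraries that overlapped. Cebpb and Runx1 stood above Cebpd in every library, and the rest of their order differed between libraries. Gfi1 came next, with 0.444 to 3.07 FPKM, and was ninth in every library. Irf8, the gene of the monocyte-promoting factor, was lowest throughout, at 0.0397 and 0.0540 FPKM with IL-3 against 0.0376 and 0.0317 FPKM without it.

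**Figure D1:**
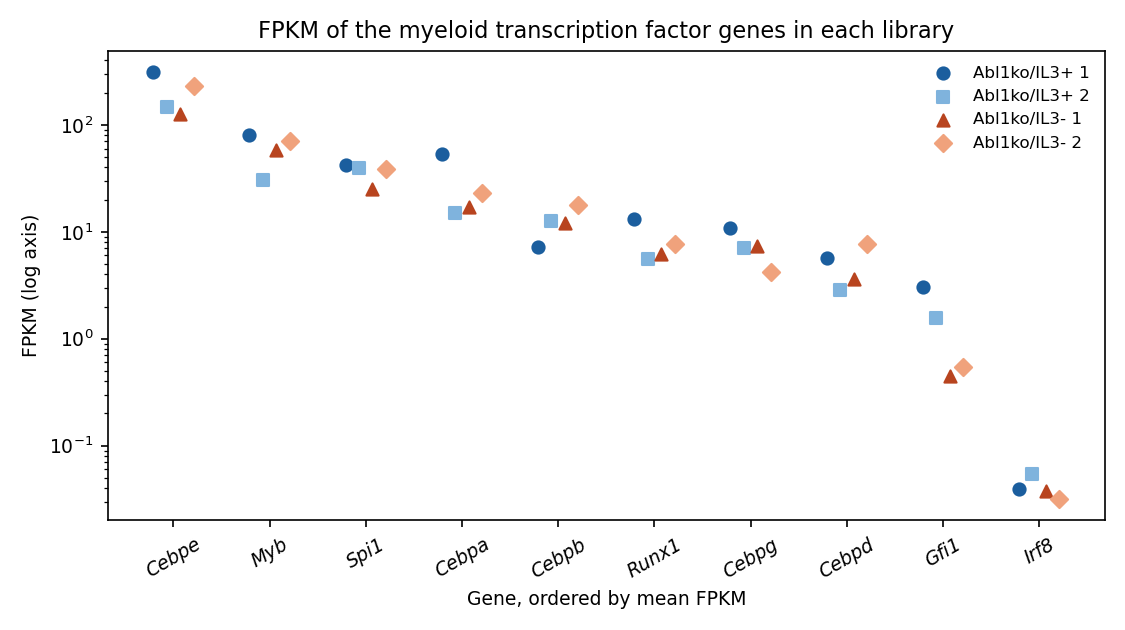
FPKM of each of the 10 genes on a log axis, with 1 point per library (blue for Abl1ko/IL3+, red and orange for Abl1ko/IL3-). Cebpe is highest and Irf8 lowest in all 4 libraries, and Gfi1 is the gene whose groups stand furthest apart.

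Cells growing without IL-3 were compared with cells kept with it by edgeR's quasi-likelihood test over 16535 genes. None of the 10 genes passed an adjusted p-value of 0.05 (0 of 10, against 0% of all genes tested), and their adjusted p-values ranged from 0.727 to 0.979. At an unadjusted p-value under 0.05 there was 1 gene, Gfi1, against 5.91% of all genes tested (3.36% lower and 2.56% higher without IL-3). In DESeq2 Gfi1 was again the 1 member that passed after adjustment, where 1.64% of all genes did (0.968% lower and 0.671% higher). Fold changes are given for Abl1ko/IL3- over Abl1ko/IL3+, and 7 of the genes had a value below 0 on the log2 scale, as had 51.9% of all genes tested. Their median was -0.40 and that of all genes tested was -0.03. Without Abl1ko/IL3+ replicate 1 the median of the 10 genes turned to 0.12.

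The groups did not overlap, in CPM scaled by TMM, for 3 genes lower without IL-3 (Gfi1, Spi1 and Cebpg), where 17.9% of all genes tested showed that pattern. None of the 10 was higher without overlap, against 19.4% of all genes, and 37.3% of all genes did not overlap in either direction. With library size alone as the scaling, Cebpg overlapped and Irf8 did not, so the count of lower genes was again 3, where 15.5% of all genes were lower and 21.5% higher without overlap. The gap between the nearest libraries of the groups was 3.30-fold for Gfi1, 1.05-fold for Spi1 and 1.03-fold for Cebpg. For 7 of the 10 genes the difference between the groups was smaller than the difference between the Abl1ko/IL3+ replicates. The median gene of the 10 differed 1.72-fold between the Abl1ko/IL3+ replicates and 1.31-fold between the Abl1ko/IL3- replicates, where the values over all genes tested were 1.67-fold and 1.28-fold.

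**Figure D2:**
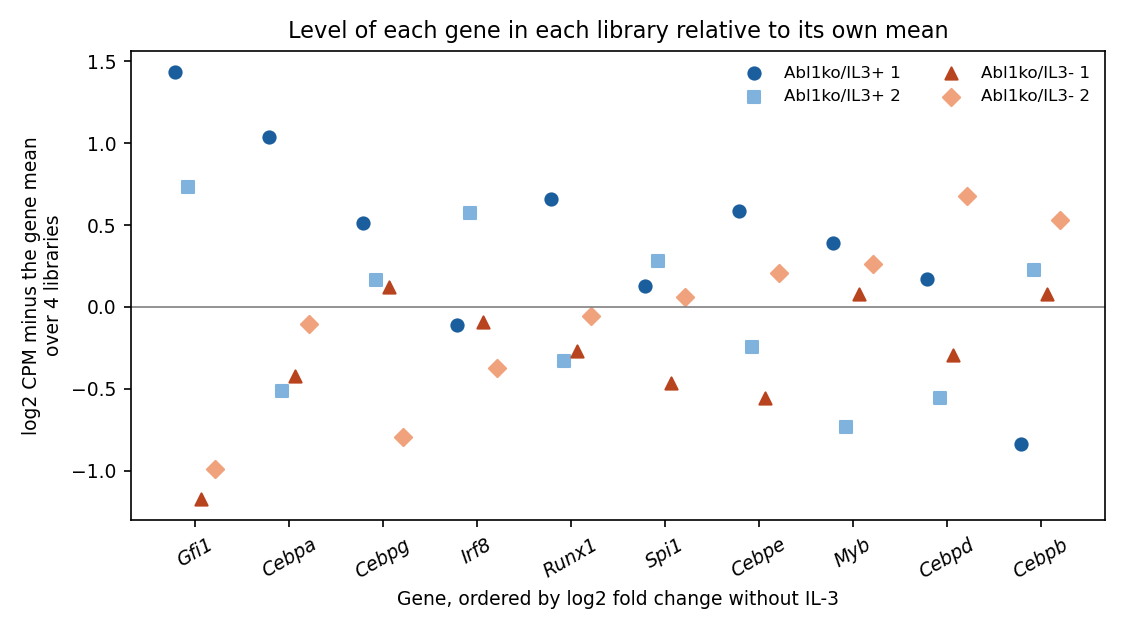
For each gene, log2 CPM in each library minus the gene's mean over the 4 libraries. Abl1ko/IL3+ replicate 1 is the highest library for 6 of the 10 genes (31.8% of all genes tested), and only for Gfi1 do both Abl1ko/IL3+ libraries stand well above both Abl1ko/IL3- libraries.

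Gfi1, a zinc finger repressor needed for neutrophil formation, stood lower in both libraries without IL-3, a difference that passed the adjusted threshold in DESeq2 and not in edgeR. The files place it on the minus strand of chromosome 5 from 107716657 to 107726036 (GRCm38). Its counts were 657 and 340 with IL-3 against 80 and 110 without it. Scaled by TMM, these were 10.2 and 6.25 CPM against 1.67 and 1.90 CPM. Both libraries without IL-3 were thus low and close together, and the groups did not overlap. Its 95% counting intervals (exact Poisson, counting error only) reached down to 304.8 counts in Abl1ko/IL3+ replicate 2 and up to 132.6 counts in Abl1ko/IL3- replicate 2. The log2 fold change was -2.20 (standard error, SE, 0.53), a level 4.61-fold lower. In edgeR the unadjusted p-value was 0.00871 and the Benjamini-Hochberg adjusted p-value 0.727. DESeq2 gave a log2 fold change of -2.21 with an adjusted p-value of 0.0117, and no other fit called Gfi1. By unadjusted p-value Gfi1 ranked 179 of the 16535 genes, and 2.89% of all genes had a log2 fold change of -2 or lower. The fold change stayed between -2.51 and -1.79 when any library was left out. In bulk RNA, fewer cells that express a gene and less RNA per cell cannot be told apart.

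The antisense gene A430072P03Rik shares 101 bases of exon with Gfi1, and it had 20 and 15 counts with IL-3 and 0 counts in both libraries without it, where 0 counts allow up to 3. Whether the counting used strand is not stated, and the part of shared reads in the counts of Gfi1 was not tested. Gfi1b, the close relative of Gfi1 in red cell and platelet precursors, was named after its values were seen. It was the more abundant paralog, at 101.4 and 102.0 FPKM with IL-3 against 63.9 and 56.5 FPKM without it. Its FPKM was 33.1 and 65.0 times that of Gfi1 with IL-3 and 144.0 and 102.9 times without it, so the ratio was higher in both Abl1ko/IL3- libraries. The edgeR log2 fold change of Gfi1b was -0.78 (SE 0.32, adjusted p = 0.850 with Benjamini-Hochberg adjustment).

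Immature myeloid markers were lower in sum in both libraries without IL-3, with 3339 and 2936 CPM against 2123 and 1540 CPM, and 8 of 10 tested had a negative log2 fold change. Mpo, the myeloperoxidase gene, gave most of the difference, at 1879 and 1477 CPM against 908.4 and 499.3 CPM (log2 fold change -1.25, SE 0.44, adjusted p = 0.827 in edgeR and 0.335 in DESeq2). The 2 with a positive value were Il3ra, at 0.05, and Cd33, which was higher without overlap. Cd33 had 142 and 88 counts with IL-3 against 364 and 354 counts without it. Its log2 fold change was 1.84 (SE 0.51, adjusted p = 0.727 in edgeR and 0.0550 in DESeq2). Most neutrophil markers had fold changes opposite in sign to that of Gfi1. Of 12 such markers 10 were tested, and 8 had a positive and 2 a negative log2 fold change. Those 2 were Cxcr2, at 138.4 and 62.3 CPM with IL-3 against 17.4 and 89.1 CPM without it, and Mmp9. Their log2 fold changes were -0.91 and -0.33. In sum the 12 markers held 944.7 and 358.3 CPM with IL-3 against 963.4 and 5456 CPM without it. Most of the last value was Ngp, at 4003 CPM in Abl1ko/IL3- replicate 2 and between 240.5 and 686.9 CPM in the other libraries. S100a8, an abundant neutrophil calcium-binding protein gene, had 74 and 21 counts with IL-3 against 3410 and 7167 without it (DESeq2 adjusted p = 8.69e-21, edgeR 0.532), while Retnlg and Mmp8 stood at or near 0 in every library, Mmp8 with at most 18 counts. S100a8, S100a9, Ltf, Camp and Ly6g, 5 of the 10 tested, were higher without overlap, against 19.4% of all genes tested. These 5 passed in DESeq2, where 0.671% of all genes were called higher, and none passed in edgeR. S100a9 had 460 and 89 counts with IL-3 against 6735 and 21503 counts without it. Ly6g had 164 and 44 against 836 and 2646 counts. The part of immature or mature cells in the level of Gfi1 was not tested.

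No C/EBP gene passed the adjusted threshold in any fit. Cebpa, on chromosome 7 from 35119293 to 35121928, had 9356 and 2696 counts with IL-3 against 2521 and 3823 counts without it. Its levels of 145.1 and 49.6 CPM with IL-3 against 52.7 and 65.9 CPM without it overlapped, because only Abl1ko/IL3+ replicate 1 was high. That library was 2.93-fold above the other Abl1ko/IL3+ library, the largest difference between replicates among the 10 genes. The log2 fold change of Cebpa was -0.72 (SE 0.57, adjusted p = 0.919 in edgeR with Benjamini-Hochberg adjustment). Without Abl1ko/IL3+ replicate 1 it turned to 0.27.

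Markers of other lineages also differed between the Abl1ko/IL3+ replicates. Mast cell and basophil markers held 1464 CPM there and between 259.6 and 459.7 CPM in the other libraries. Erythroid and megakaryocyte markers held 949.4 CPM there against 8233 CPM in Abl1ko/IL3+ replicate 2 and 4472 and 2412 CPM in the Abl1ko/IL3- libraries. Most of the spread of that sum came from 1 gene, the globin gene Hba-a1, with 117.3 CPM there against 6745, 3316 and 1575 CPM in the other libraries. Gata2, a progenitor and mast cell factor, had 220.8 CPM in that library and 34.7 CPM in the other library with IL-3, with 23.7 and 133.2 CPM without it. Macrophage markers held 334.6 and 101.9 CPM with IL-3 against 187.3 and 725.3 CPM without it. Of 5 tested, 2 had a positive and 3 a negative log2 fold change. Lyz2 had 941 and 1193 counts with IL-3 against 3588 and 28226 without it. Its log2 fold change was 3.94 (SE 0.98, adjusted p = 0.727 in edgeR and 0.00094 in DESeq2). T-cell markers held 0.838 and 1.47 CPM with IL-3 against 2.70 and 5.94 CPM without it. The part of these lineages in the level of Cebpa was not tested.

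Cebpe, the most abundant member, had 401.3 and 225.7 CPM with IL-3 against 181.7 and 309.0 CPM without it. The libraries of the groups alternated, and the log2 fold change was -0.35 (SE 0.47, adjusted p = 0.964 in edgeR). It turned to 0.14 without Abl1ko/IL3+ replicate 1. Cebpg, which encodes a short C/EBP partner without a strong activation domain, had 62.7 and 49.3 CPM with IL-3 against 47.9 and 25.3 CPM without it. Only Abl1ko/IL3- replicate 2 was clearly low, and the log2 fold change of -0.61 (SE 0.43, adjusted p = 0.901 in edgeR) was -0.22 without that library. Cebpg lies next to Cebpa on chromosome 7, on the other strand, with 62720 bases between its start and that of Cebpa. Both genes were highest in Abl1ko/IL3+ replicate 1, but the lowest library was Abl1ko/IL3+ replicate 2 for Cebpa and Abl1ko/IL3- replicate 2 for Cebpg.

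Cebpb and Cebpd, the cytokine-responsive members, were the C/EBP genes with positive log2 fold changes. Cebpb had 11.2 and 23.5 CPM with IL-3 against 21.2 and 29.0 CPM without it. Here Abl1ko/IL3+ replicate 1 was the low library, and the other 3 lay close together. The log2 fold change of Cebpb was 0.53 (SE 0.50, adjusted p = 0.933 in edgeR), with 0.11 left without Abl1ko/IL3+ replicate 1 and 1.16 without replicate 2. Cebpd had 22.0 and 13.3 CPM with IL-3 against 15.9 and 31.3 CPM without it, a log2 fold change of 0.42 (SE 0.51, adjusted p = 0.955 in edgeR). It turned to -0.14 without Abl1ko/IL3- replicate 2, the highest library. Cebpb shares 20.7% of its exon bases with Tmem189 and Cebpd shares 15.0% with Spidr, both on the opposite strand, so that reads of these pairs may not be told apart.

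Cebpe held most of the C/EBP transcript level in every library. Cebpe took 80.3% and 79.6% of the summed C/EBP FPKM with IL-3 against 75.8% and 81.3% without it. Cebpa took 13.7% and 8.23% with IL-3 against 10.3% and 8.16% without it. Cebpb took 1.85% in Abl1ko/IL3+ replicate 1 and 6.84%, 7.31% and 6.30% in the other 3 libraries. The share of Cebpd was 1.46% and 1.55% with IL-3 and higher in both libraries without it, at 2.20% and 2.73%. That of Cebpg was 2.77% and 3.83% with IL-3 against 4.41% and 1.47% without it. With 2 libraries in each group an exact two-sided permutation test cannot give a p-value below 0.333, so these shares were not tested.

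**Figure D3:**
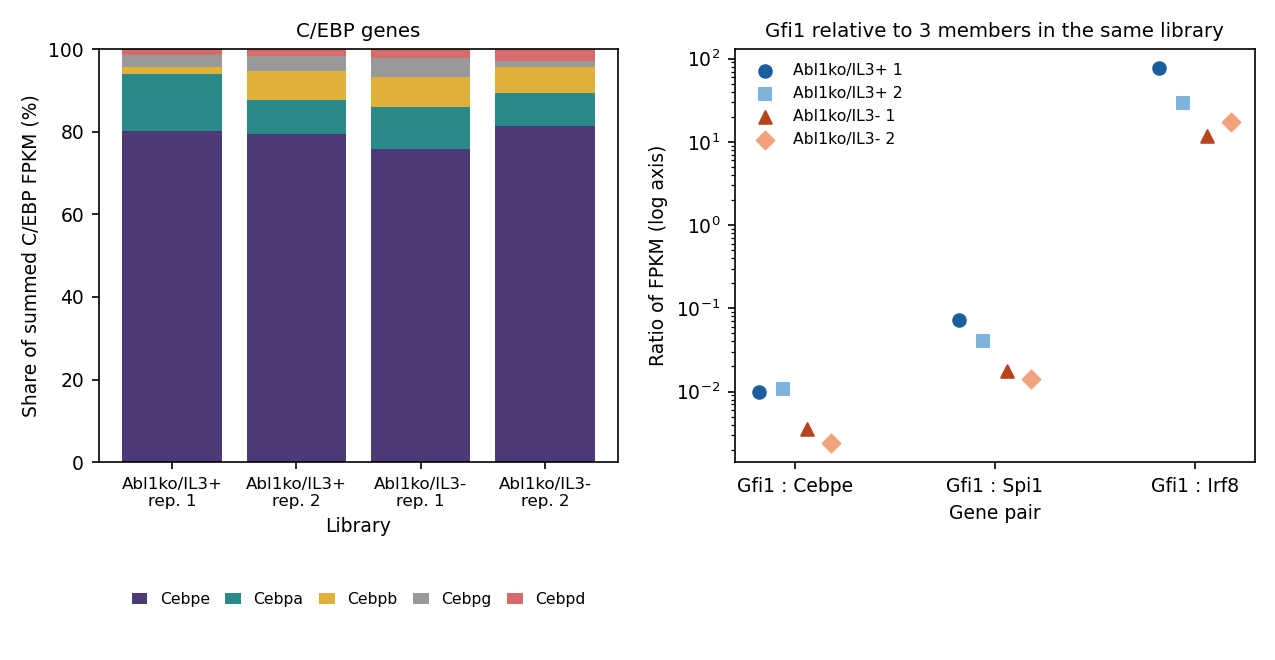
Left, bars give the share of each C/EBP gene in the summed C/EBP FPKM of each library, with Cebpe between 75.8% and 81.3%. Right, points give the FPKM of Gfi1 divided by that of Cebpe, Spi1 and Irf8 in the same library on a log axis. In all 3 pairs both Abl1ko/IL3- libraries lie below both Abl1ko/IL3+ libraries, as they do for Gfi1 alone.

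Spi1, which encodes PU.1, lies on chromosome 2 from 91082390 to 91114366. It was the steadiest member with IL-3, with 118.3 and 131.7 CPM, and had 78.6 and 113.0 CPM without IL-3. The groups stood 1.05-fold apart at their nearest libraries. Its log2 fold change was -0.38 (SE 0.34, adjusted p = 0.930 in edgeR), and it was -0.15 without Abl1ko/IL3- replicate 1. Irf8, on chromosome 8 from 120736358 to 120756694, had 20 and 27 counts with IL-3 and 15 counts in each library without it. Its counting intervals overlapped between all libraries, from 12.2 to 30.9 and from 17.8 to 39.3 counts with IL-3 and from 8.40 to 24.7 counts in each library without it. The log2 fold change of Irf8 was -0.49 (SE 0.84, adjusted p = 0.973 in edgeR), and at this depth no difference was detectable. Irf4, the relative of Irf8 that also pairs with PU.1, was read at 8 counts in each library with IL-3 against 29 and 285 counts without it. Its log2 fold change was 4.33 (SE 1.23, adjusted p = 0.727 in edgeR and 0.0194 in DESeq2, both with Benjamini-Hochberg adjustment). Most of its counts came from Abl1ko/IL3- replicate 2, where Irf4 reached 0.924 FPKM.

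Within each library Gfi1 was set against other members, which removes the scaling between libraries. The ratio of Gfi1 to Irf8, the repressor and the monocyte factor that oppose each other, was 77.2 and 29.1 with IL-3 against 11.8 and 17.3 without it. Because Irf8 had so few counts, the ratio carries a large counting error. Against Cebpe the FPKM of Gfi1 was 0.00987 and 0.0108 with IL-3 against 0.00355 and 0.00238 without it. The Abl1ko/IL3+ libraries agreed closely here, and both stood above the Abl1ko/IL3- libraries. Against Spi1 the ratio was 0.0727 and 0.0401 with IL-3 against 0.0178 and 0.0141 without it, again without overlap. Gfi1 alone was already lower without overlap, by 3.30-fold at the nearest libraries. These ratios largely repeat that difference and are not separate evidence for it.

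Runx1 and Myb, the progenitor factors, overlapped between the groups. Runx1, on chromosome 16 from 92601466 to 92826149, had 165.6 and 83.2 CPM with IL-3 against 86.8 and 100.7 CPM without it. Only Abl1ko/IL3+ replicate 1 was high, and the log2 fold change of -0.41 (SE 0.43, adjusted p = 0.942 in edgeR) turned to 0.19 without that library. Cbfb, which encodes the partner that steadies RUNX1 on DNA, was read at 31.9 and 19.6 FPKM with IL-3 against 30.6 and 32.4 FPKM without it. The FPKM of Runx1 was 0.415 and 0.283 of that of Cbfb with IL-3 and 0.201 and 0.239 of it without IL-3. This ratio was therefore lower in both Abl1ko/IL3- libraries, by a margin smaller than the difference between the Abl1ko/IL3+ libraries. Myb, on chromosome 10 from 21124935 to 21160984, had 746.7 and 342.9 CPM with IL-3 against 601.8 and 683.6 CPM without it. Here Abl1ko/IL3+ replicate 2 was the low library. The log2 fold change of Myb was 0.24 (SE 0.47, adjusted p = 0.979 in edgeR), and it was -0.22 without that library. The ratio of Cebpa to Myb in FPKM was 0.659 and 0.490 with IL-3 against 0.297 and 0.326 without it. Unlike either gene alone, this ratio did not overlap between the groups. Its log2 difference was -0.87, and between -1.08 and -0.66 when any library was left out. Without overlap, leaving out a library cannot turn its sign. The ratio of Cebpe to Cebpa overlapped, at 5.87 and 9.67 with IL-3 against 7.33 and 9.97 without it. So did that of Cebpb to Cebpa, at 0.136 and 0.831 against 0.707 and 0.772. How many other gene pairs separate the groups was not tested.

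**Figure D4:**
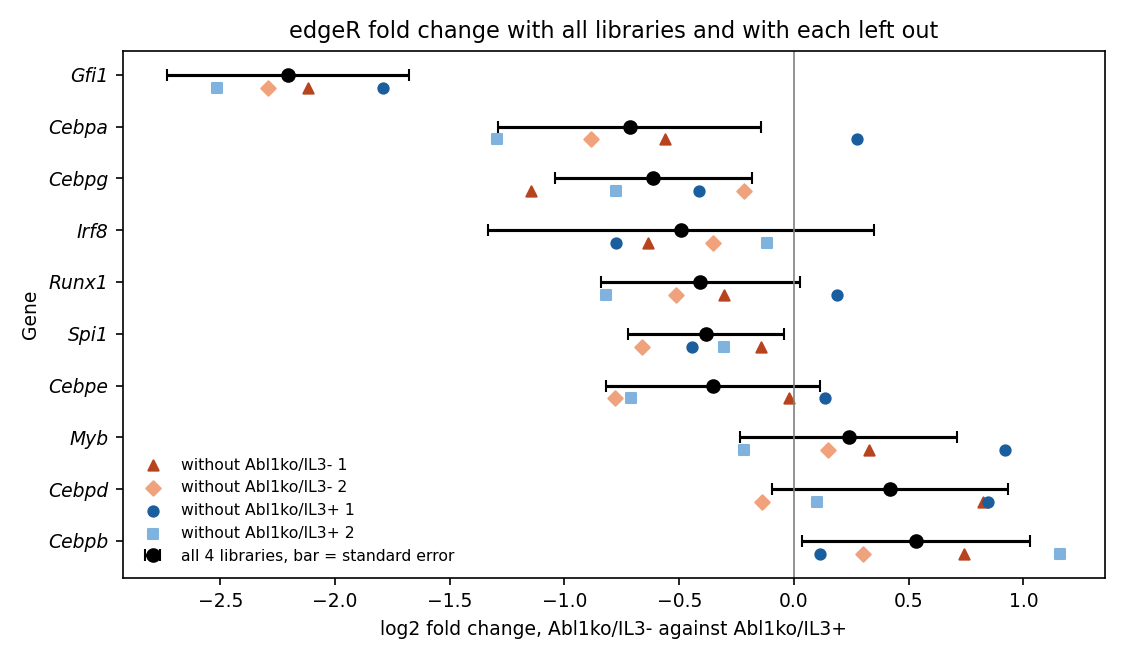
Log2 fold change of each gene, Abl1ko/IL3- against Abl1ko/IL3+, with its standard error from edgeR (black), and without each library in turn (coloured, no error). Gfi1 lies between -2.51 and -1.79 in every case, while Cebpa, Runx1 and Cebpe cross 0 without Abl1ko/IL3+ replicate 1.

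Other genes of the circuit were read from lists of partners and cofactors, progenitor factors, monocyte factors and target genes. No gene of these lists passed the adjusted threshold in edgeR, with or without the replicate number as a block. Of 18 partners tested, 11 had a positive and 7 a negative log2 fold change. Ddit3, which encodes the C/EBP partner CHOP induced by stress, had 1223 and 1598 counts with IL-3 against 2747 and 3541 counts without it, and its log2 value was 1.29 (SE 0.37, adjusted p = 0.727 in edgeR). Ddit3 was named after its values were seen. Fos, the immediate early gene whose product pairs with JUN, had 19 and 12 counts with IL-3 against 21 and 119 counts without it, with most of them again in Abl1ko/IL3- replicate 2. Of 12 progenitor factors tested, 9 had a negative log2 fold change, with a median of -0.41.

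Of the 11 monocyte factors only 6 had counts enough to be tested. Klf4 was read at 8 counts in Abl1ko/IL3+ replicate 2 and at 0 in the other libraries. Nr4a1 had 18 and 0 counts with IL-3 against 20 and 54 counts without it. Of those tested, 3 had a positive and 3 a negative log2 fold change. Among 16 target genes tested, 9 had a positive and 7 a negative log2 fold change, with a median of 0.17. Ltf, a secondary granule gene that depends on C/EBPε, had 406 and 197 counts with IL-3 against 2188 and 19613 counts without it (log2 fold change 5.27, SE 1.12, adjusted p = 0.727 in edgeR and 2.03e-06 in DESeq2). Camp, another such gene, had 4 and 0 counts with IL-3 against 21 and 193 counts without it (adjusted p = 0.737 in edgeR and 0.0190 in DESeq2). The level of Cebpe itself overlapped between the groups.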

How the data were processed

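RNA-seq of 4 libraries was analysed, 2 per group, grouped by their titles. Per the labels, ribosomal RNA was removed. Per the paper's methods, reads were aligned to GRCm38 with Rsubread and counted per gene with featureCounts. The submitters' processing notes instead name STAR, Cuffdiff and mm10, and neither versions nor the strand setting are given in the sources used here. The authors deposited raw counts without normalization, identical in both files, and FPKM values, for which no tool is tied to the file. With 2 libraries a group, p-values set the group difference against the spread between libraries labelled as biological duplicates.

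Genes were filtered with filterByExpr (16535 of 23756 kept), normalized with TMM and tested two-sided with edgeR 4.0.16 in R 4.3.3 (quasi-likelihood F test, Benjamini-Hochberg adjustment, threshold 0.05). Counts simulated for these genes were used to check the fit. A count of 0 was taken to allow up to 3. Alternatives were DESeq2 1.42.0, library size only, no filter, 10 counts in every library, the replicate block, limma 3.58.1 on log2(FPKM + 1) and log2(FPKM + 0.1), and leaving out each library with no test. Fold changes of libraries left out used the dispersions of all 4 libraries. Every pair of libraries differed beyond sampling noise (chi-square test), so each was kept. Of 2 rows named Ddit3, the one with more counts was used, and 10 listed genes were not analysed here.

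The members and gene lists were chosen with earlier results of these data known. Named were all members and Abl1. No list gene passed, so a further rule was used for the partner, progenitor, monocyte and target lists. It named genes whose groups did not overlap with an absolute log2 fold change of at least 2. The marker lists were not under that rule. Any other gene was named after its values were seen.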

Additional observations from a re-analysis of the deposited data

How the results depend on the processing

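No member passed the adjusted threshold in edgeR with TMM, library size only, no filter, 10 counts in every library or in limma with either pseudocount, and DESeq2 called 1, Gfi1. Over all genes edgeR called 0 and DESeq2 271, and the cause was not tested. Each of the 10 genes kept its direction in all 8 of these fits, the block and crossed fits included, with 79 of 80 on the same side of the threshold. Same-numbered libraries were not shown to be pairs: their deviations from the group means had a correlation of -0.194. With the replicate number as a block 0 members passed, the median log2 fold change was -0.38, and Gfi1 had -2.16 (unadjusted p = 0.0241 in edgeR). Crossed pairs, which were added once the data had been seen, also gave 0 members and a median of -0.38. The log2 difference of Gfi1 was -1.11 with a pseudocount of 1 FPKM, near its own level. Leaving out a library moved the median of the members between -0.51 and 0.12, the latter without Abl1ko/IL3+ replicate 1, and 5 of the 10 genes kept their direction throughout. Of the other listed genes 0 passed, with 7 in DESeq2 and 12 at an unadjusted p-value under 0.05 in edgeR, a threshold added after seeing the data. Over all genes tested, 1.64% passed in DESeq2 and 5.91% at that unadjusted threshold. The 7 were S100a8, S100a9, Ltf, Camp, Ly6g, Lyz2 and Irf4. The share of Cebpd was 0.960 percentage points higher without IL-3 in FPKM and 2.34 points higher in counts, which are not scaled by length. The share of Cebpa differed by -1.70 points, between -4.42 and 1.02 when a library was left out, and the log2 ratio of Gfi1 to Irf8 by -1.73, between -2.43 and -1.02. Depth limits Irf8, which no library read above 27 counts.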
